A study of Mus musculus with 8 samples.

Results

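Interferon response genes are the genes that a cell switches on when an interferon binds its receptor, together with the transcription factors that carry the signal. They were chosen by symbol from the protein-coding genes of the deposited expression table: the Ifit, Ifitm, Oas, Gbp, Irgm and numbered Ifi families, the interferon regulatory factors, Stat2 and single antiviral genes such as Isg15, Bst2, Rsad2 and Zbp1. The rule found 79 of 22046 protein-coding genes, in a table of 54532 genes. The symbols also bring in relatives that are not known for an interferon response, such as the bone gene Ifitm5 and the ribosomal RNA processing gene Isg20l2.

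Heart tissue of mice was sampled at postnatal day 4. The cHET hearts (4 libraries) carried the alleles Mrps5 fl/+ and Myh6-Cre, in which the promoter of a cardiomyocyte myosin gene drives Cre, so that 1 allele of Mrps5 is lost in cardiomyocytes. The control hearts (4 libraries) carried Mrps5 fl/+ alone. Both groups thus hold the floxed allele, and cells of the cHET heart other than cardiomyocytes keep both alleles. No group holds Cre alone, so effects of Cre and of the lost allele cannot be told apart. Libraries are named by their labels.

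Levels are given as FPKM, which scales the reads of a gene by its length and by the size of the library, so that genes can be compared. The libraries held 15490622 to 19234777 reads on genes (exact two-sided permutation test between the groups, p = 0.0571). Mrps5, a gene of the mitochondrial ribosome, had 6.84, 7.12, 6.995 and 7.68 FPKM in cHET 1 to 4, against 11.6, 6.27, 10.1 and 5.15 FPKM in control 1 to 4 (exact two-sided permutation test, p = 0.486). The libraries labelled control 2 and control 4 thus held less Mrps5 than every cHET library, the opposite of the order that a lost allele would give. Values of heart tissue also count cells that keep both alleles, so they cannot decide whether the labels are right. The results on the list are also given without control 2 and control 4.

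Type I interferons bind a receptor of Ifnar1 and Ifnar2, whose kinases Jak1 and Tyk2 lead to a complex of Stat2 and Irf9 that binds a DNA motif called the interferon-stimulated response element. Interferon gamma acts through Ifngr1 and Ifngr2 and on genes with another motif, the gamma-activated site. In a heart, macrophages, endothelial cells, fibroblasts and cardiomyocytes can all respond, and in bulk tissue fewer cells of a type and less RNA per cell cannot be told apart.

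Motifs of this regulation were looked for in the promoters. Of the members, 60 matched a RefSeq promoter on build GRCm38.p6. The 250 bases before the RefSeq start were searched on both strands for 2 cores, GAAANNGAA for the interferon-stimulated response element and TTCNNNGAA for the gamma-activated site. The first core was found in 32 of the 60 promoters (53.3%), against 7.16% of 27025 promoters of all genes. The second was found in 13 (21.7%), against 7.18%. A match says only that these letters are present, and the search did not use the expression values.

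Promoter stretches are shown for the 4 named members with a match and the smallest p in the comparison of the groups, to show how the cores sit relative to the start. The capitals mark the cores. Gbp2 is given as 30 bases only, chr3:142620595-142620624 on the plus strand, because the start in the expression table lies 61 bases before the RefSeq start. Its core, on the minus strand, begins 58 bases before the RefSeq start.
Gbp2: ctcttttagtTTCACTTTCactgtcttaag

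Igtp, at chr11:58199306-58199555 on the plus strand, holds the gamma-activated core 45 bases and the interferon-stimulated core 34 bases before the start.
Igtp: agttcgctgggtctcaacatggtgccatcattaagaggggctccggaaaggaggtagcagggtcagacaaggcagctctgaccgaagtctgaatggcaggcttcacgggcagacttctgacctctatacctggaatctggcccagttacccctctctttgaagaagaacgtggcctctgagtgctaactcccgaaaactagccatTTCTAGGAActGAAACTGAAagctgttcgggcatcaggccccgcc

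Irf8, at chr8:120736108-120736357 on the plus strand, holds the gamma-activated core at 171 and 153 bases before the start and no interferon-stimulated core in this window.
Irf8: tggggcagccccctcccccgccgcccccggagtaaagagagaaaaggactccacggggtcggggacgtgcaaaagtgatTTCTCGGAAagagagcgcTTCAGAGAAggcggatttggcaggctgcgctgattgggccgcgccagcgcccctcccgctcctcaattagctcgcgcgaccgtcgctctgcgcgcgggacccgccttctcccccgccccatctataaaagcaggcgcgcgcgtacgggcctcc

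Bst2, at chr8:71537473-71537722 on the minus strand, holds 1 gamma-activated core, 136 bases before the start, and 2 interferon-stimulated cores, at 130 and 124 bases. These 3 matches overlap in a single run.
Bst2: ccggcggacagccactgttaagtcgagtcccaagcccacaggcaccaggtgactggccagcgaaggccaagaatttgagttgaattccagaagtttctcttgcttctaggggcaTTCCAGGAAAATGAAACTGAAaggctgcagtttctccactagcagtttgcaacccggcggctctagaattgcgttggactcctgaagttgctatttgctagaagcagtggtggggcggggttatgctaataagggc

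Most interferon response genes stood at low levels in these hearts. Only 36 of the 79 members had a mean of at least 1 FPKM over the 8 libraries and entered the tests, and 26 of these stayed under 5 FPKM. Just 6 exceeded 10 FPKM: Ifitm3, Ifitm2, Bst2, Irf3, Ifi27l2a and Ifi27. Antiviral genes were found at both ends, from Ifitm3 at 97.2 FPKM in cHET and 113 FPKM in control to genes under the limit of 1 FPKM, with means of 0.154 FPKM in cHET and 0.145 FPKM in control for Mx1, and of 0.471 FPKM in cHET and 0.700 FPKM in control for Ifit1. Genes of the Ifit, Oas, Gbp and Ifi200 families lie in rows of related copies. Where such copies are nearly alike in sequence, the counting could divide reads unevenly.

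The fold changes of the members lay below 0 more often than above it, and no single member passed the test. All log2 fold changes given here are of FPKM + 1, a scale that understates changes of low genes. Of the 36 tested members, 30 had a log2 fold change below 0, or 83.3%, against 47.9% of all 13029 genes tested. Their median log2 fold change was -0.20, with a range from -0.62 to 0.17, against a median of 0.0086 for all genes tested. No member passed limma at an adjusted p under 0.05 in either direction (lowest adjusted p = 0.430), where 0.0230% of all genes passed as higher and 0% as lower. Fitting the rebuilt reads with voom also called 0 members, with 5 lower at an unadjusted p under 0.05. In that fit 1215 of all 13029 genes passed the unadjusted limit in either direction. At an unadjusted p under 0.05, 6 members (16.7%) were lower, against 3.92% of all genes, and 0 were higher, against 5.03%.

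The groups did not overlap for 2 members that were lower in cHET (5.56%, against 2.00% of all genes) and for 0 that were higher (against 2.74%). Members share regulators and cells of origin, so these counts are not independent results. The count of members lower at an unadjusted p under 0.05 was 2 without control 2 and 11 without control 3, which also had 1 higher. Of all 13029 genes tested, 1144 and 1223 passed this limit in either direction. The members' median was -0.11 without control 1 and control 2 together, with 24 of 36 members below 0, against 49.4% of all genes. It was -0.045 with library weights, with 25 members below 0, against 49.3% of all genes. Without the libraries labelled control 2 and control 4, the median was -0.094, with 23 of 36 members below 0, against 48.5% of all genes. In that fit 3 members were lower at an unadjusted p under 0.05 and 0 were called. Over the whole table, 1352 genes passed the unadjusted limit in either direction. Under the TPM scaling, in which every library sums to the same total, the median was -0.13 for the members and 0.089 for all genes tested.

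**Figure D1:**
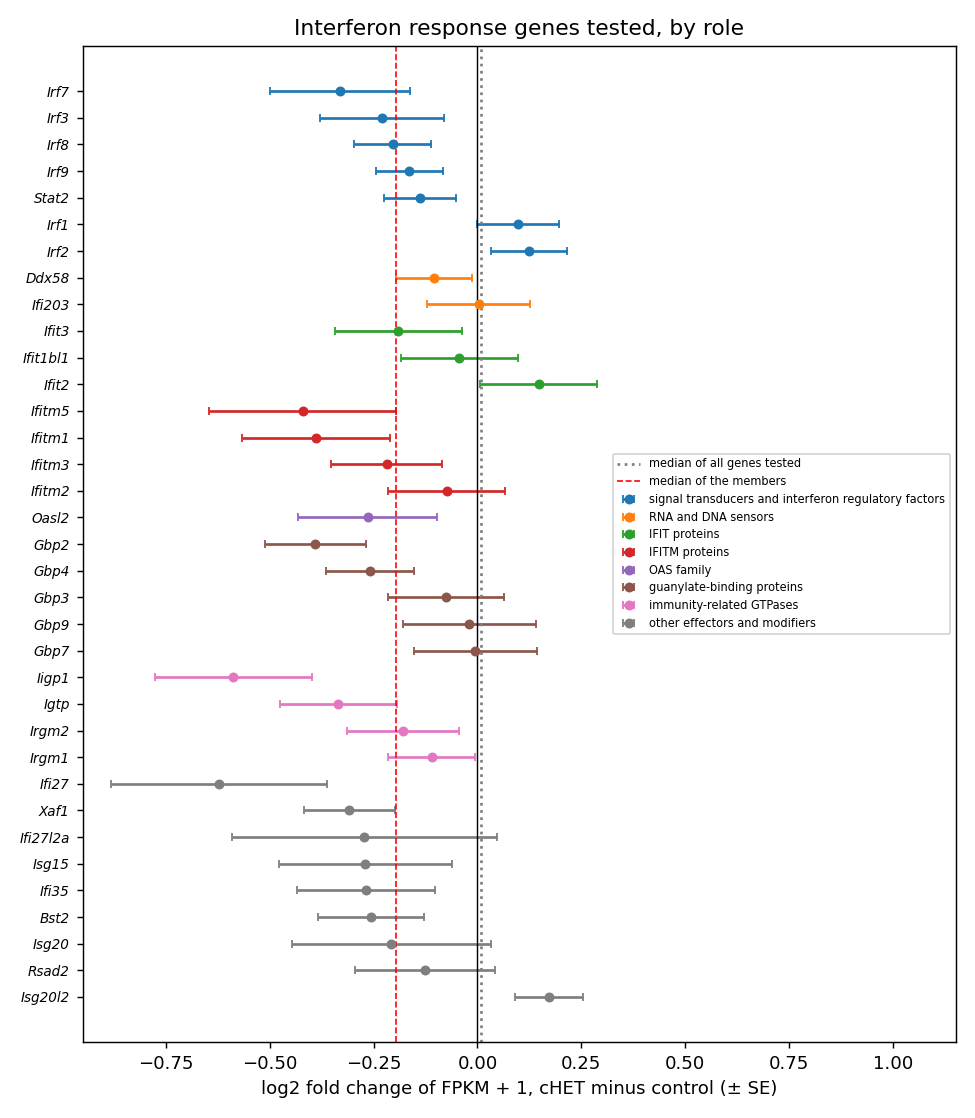
Log2 fold changes of FPKM + 1 (cHET minus control) for 35 of the 36 tested interferon response genes, grouped by role, with bars of 1 standard error from limma. Most points lie left of 0, around the members' median of -0.20 (dashed), while the dotted line gives the median of all genes tested, 0.0086.

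The transcription factors of the response lay on both sides of 0. Stat2, a signal transducer of type I interferon, had 4.62, 4.44, 4.57 and 4.84 FPKM in cHET 1 to 4, against 5.71, 5.38, 4.35 and 5.37 FPKM in control 1 to 4. Control 3 lay below every cHET library and the other 3 controls above all of them.

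Irf9, which supplies DNA binding to the complex with Stat2, repeated that arrangement in part. It had 4.37, 4.63, 4.76 and 5.06 FPKM in cHET 1 to 4, against 5.55, 5.44, 4.78 and 5.82 FPKM in control 1 to 4. Only control 3 fell within the cHET range. The log2 fold change came to -0.16 for Irf9 (SE 0.0811; limma, adjusted p = 0.592) and -0.14 for Stat2 (SE 0.0875; limma, adjusted p = 0.655).

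Irf7, which amplifies type I interferon production, had 1.21, 1.79, 1.14 and 1.83 FPKM in cHET 1 to 4, against 2.80, 2.33, 1.31 and 2.20 FPKM in control 1 to 4 (log2 fold change -0.33; limma, adjusted p = 0.596). Only control 3 fell within the cHET range. Irf3, which starts interferon production after sensing, was the most abundant factor of the family. It had 23.0, 20.01, 17.8 and 19.1 FPKM in cHET 1 to 4, against 28.7, 27.8, 20.6 and 18.5 FPKM in control 1 to 4. Control 1 and control 2 stood above the cHET range and the other 2 controls inside it, and the log2 fold change was -0.23 (limma, adjusted p = 0.659). Without control 1 and control 2 its log2 fold change was 0.025.

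Irf8, a factor of myeloid cells, had 1.77, 1.85, 1.95 and 2.34 FPKM in cHET 1 to 4, against 2.45, 2.34, 2.22 and 2.69 FPKM in control 1 to 4. Only cHET 4 reached into the control range, and the log2 fold change was -0.20 (limma, adjusted p = 0.567). Irf1, an activator induced by interferon gamma, lay on the other side of 0. It had 3.96, 4.10, 3.21 and 3.65 FPKM in cHET 1 to 4, against 3.68, 3.22, 2.95 and 3.84 FPKM in control 1 to 4 (log2 fold change 0.10; limma, adjusted p = 0.753). Irf2, which competes with Irf1 for its sites, averaged 2.39 ± 0.0985 FPKM in cHET and 2.12 ± 0.290 FPKM in control (SD, n = 4), a log2 fold change of 0.12. Irf4 and Irf5 stood under the limit of 1 FPKM, at means over the 8 libraries of 0.118 and 0.971 FPKM.

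Guanylate-binding proteins, large GTPases that attack the vacuoles of intracellular pathogens, included the only tested members whose groups did not overlap. Gbp2 (chromosome 3, 142620602 to 142638008, plus strand) had 1.49, 1.60, 1.39 and 1.67 FPKM in cHET 1 to 4, against 2.41, 3.03, 1.74 and 2.23 FPKM in control 1 to 4. Every control library lay above every cHET library, with control 3 closest. In limma its log2 fold change of -0.39 with SE 0.122 had the smallest p among the members (adjusted p = 0.430).

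Gbp4 had 0.905, 0.924, 0.980 and 0.899 FPKM in cHET 1 to 4, against 1.44, 1.54, 1.01 and 1.26 FPKM in control 1 to 4. The cHET libraries were tightly grouped and control 3 stood just above them (log2 fold change -0.26; limma, adjusted p = 0.541). The gene models of Gbp4, Gbp8 and Gbp9 overlap on the same strand, so the counts of these 3 genes are uncertain. Gbp9 was the most abundant of the family, at 4.08 ± 0.318 FPKM in cHET and 4.26 ± 1.40 FPKM in control (SD, n = 4). Gbp3 (-0.076), Gbp9 (-0.019) and Gbp7 (-0.0050) had log2 fold changes near 0, and those of Gbp9 and Gbp7 were above 0 under the TPM scaling (0.053 and 0.048).

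**Figure D2:**
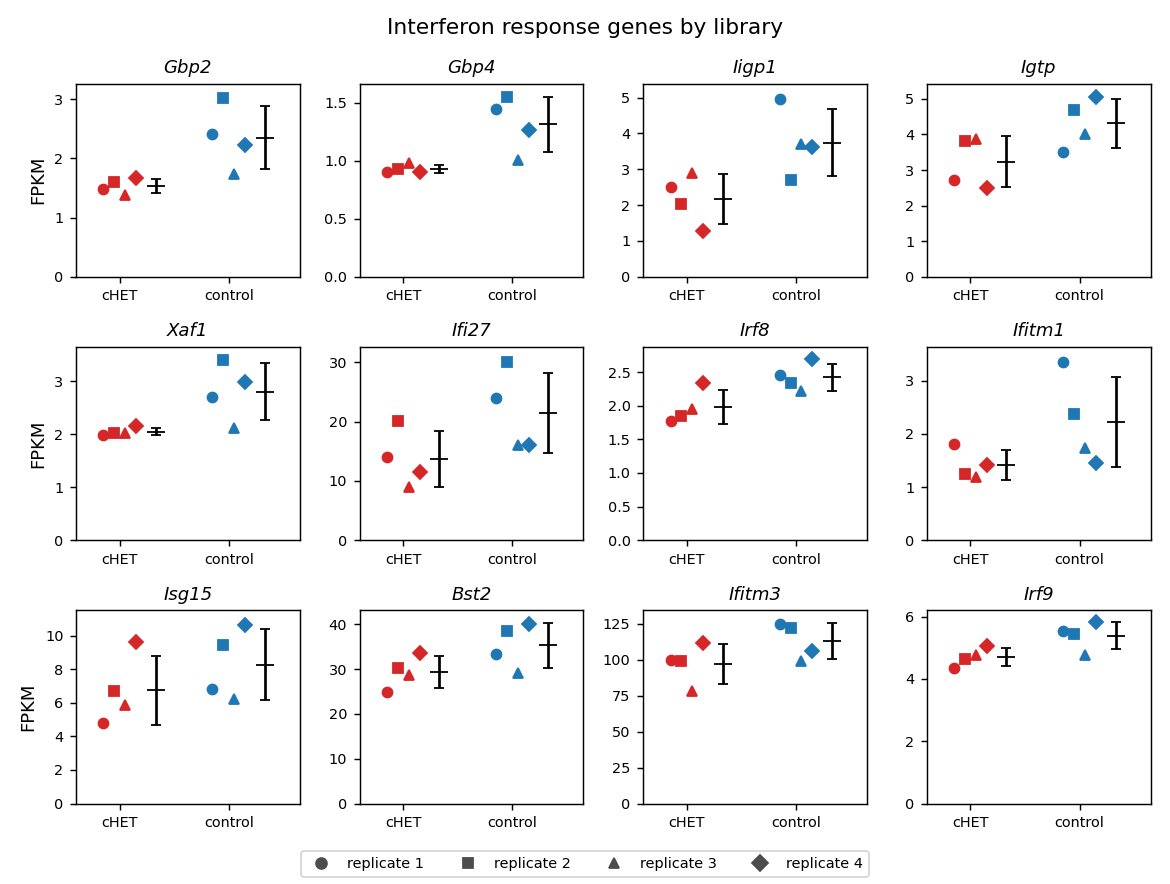
FPKM (axes from 0) of 12 interferon response genes in each library, cHET left of control, with the mean and SD of 4 libraries in black and marker shapes for the replicate numbers. For Gbp2 and Gbp4 the groups do not overlap, for Xaf1 only control 3 (2.12 FPKM) falls within the cHET range, and for Isg15 the groups overlap.

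Immunity-related GTPases act on the same vacuoles and are induced mainly by interferon gamma in mice. All 4 tested genes had a log2 fold change below 0, in the FPKM values and under the 3 other scalings tried. Iigp1 had 2.49, 2.04, 2.89 and 1.27 FPKM in cHET 1 to 4, against 4.95, 2.70, 3.72 and 3.62 FPKM in control 1 to 4. The overlap came from control 2, which lay below cHET 3, and limma gave -0.59 on the log2 scale with SE 0.189 (adjusted p = 0.433).

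Igtp had 2.72, 3.82, 3.88 and 2.51 FPKM in cHET 1 to 4, against 3.50, 4.68, 4.01 and 5.04 FPKM in control 1 to 4. Control 1 fell between the cHET libraries and the other 3 controls above them (log2 fold change -0.33; limma, adjusted p = 0.547). Irgm1, a regulator of the other GTPases, had 2.32, 2.41, 1.91 and 2.21 FPKM in cHET 1 to 4, against 2.26, 2.64, 2.05 and 2.95 FPKM in control 1 to 4 (log2 fold change -0.11; limma, adjusted p = 0.739, and 0.023 without control 2 and control 4). Its groups overlapped. Irgm2 averaged 1.99 ± 0.184 FPKM in cHET and 2.42 ± 0.650 FPKM in control (SD, n = 4; log2 fold change -0.18), and since its gene model spans that of Igtp on the same strand, the counts of both are uncertain.

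IFITM proteins, which keep viruses from fusing with cell membranes, were the most abundant members. Ifitm3 (chromosome 7, 141009586 to 141010770, minus strand) had 99.998, 98.9, 78.3 and 112 FPKM in cHET 1 to 4, against 125, 122, 98.8 and 106 FPKM in control 1 to 4. The top cHET library, cHET 4, exceeded control 3 and control 4 (log2 fold change -0.22; limma, adjusted p = 0.650, and -0.12 without cHET 3). Ifitm2 had 72.4, 75.3, 67.5 and 73.7 FPKM in cHET 1 to 4, against 77.1, 96.8, 75.3 and 59.4 FPKM in control 1 to 4. Control 2 was high and control 4 low for this gene, and its log2 fold change was -0.074 (limma, adjusted p = 0.871) and 0.024 under the TPM scaling.

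Ifitm1 was scarce, with 1.82, 1.24, 1.195 and 1.42 FPKM in cHET 1 to 4, against 3.35, 2.38, 1.74 and 1.45 FPKM in control 1 to 4. Control 1 and control 2 exceeded every cHET library (log2 fold change -0.39; limma, adjusted p = 0.572, and -0.23 without control 1), and counts were as low as 21 reads in a library. Ifitm5 averaged 0.755 ± 0.255 FPKM in cHET and 1.42 ± 0.708 FPKM in control (SD, n = 4), a log2 fold change of -0.42 on 6 to 27 reads.

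The IFIT and OAS families, which bind viral RNA or set off its degradation, were mostly under the limit of 1 FPKM. Of 6 IFIT genes 3 were tested. Ifit3 had 0.704, 0.891, 0.892 and 1.39 FPKM in cHET 1 to 4, against 1.62, 1.49, 0.872 and 1.01 FPKM in control 1 to 4 (log2 fold change -0.19; limma, adjusted p = 0.711). The groups overlapped, with cHET 4 above control 3 and control 4. Ifit2 averaged 5.09 ± 0.839 FPKM in cHET and 4.52 ± 1.01 FPKM in control (SD, n = 4), a log2 fold change of 0.15, and Ifit1bl1 had -0.043, or 0.012 under the TPM scaling. Of 11 OAS genes only Oasl2 was tested, at 1.18 ± 0.269 FPKM in cHET and 1.64 ± 0.549 FPKM in control (SD, n = 4; log2 fold change -0.26).

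Among the other effectors, Ifi27, an interferon-induced protein of mitochondria and the nuclear envelope, had the most negative log2 fold change. It had 14.0, 20.1, 9.04 and 11.5 FPKM in cHET 1 to 4, against 23.9, 30.004, 16.0 and 16.0 FPKM in control 1 to 4. Only cHET 2 reached above the lower controls (log2 fold change -0.62, SE 0.260; limma, adjusted p = 0.546). Its neighbour Ifi27l2a had 11.9, 26.7, 13.9 and 22.3 FPKM in cHET 1 to 4, against 25.7, 32.2, 12.3 and 21.1 FPKM in control 1 to 4. The spread within each group exceeded the difference between them (log2 fold change -0.27; limma, adjusted p = 0.782), which was 0.13 without control 1 and control 2.

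Xaf1, a pro-apoptotic gene induced by interferon, had 2.00, 2.03, 2.02 and 2.15 FPKM in cHET 1 to 4, against 2.70, 3.41, 2.12 and 2.98 FPKM in control 1 to 4. The cHET libraries hardly differed from each other and control 3 fell among them (log2 fold change -0.31, SE 0.110; limma, adjusted p = 0.479). Bst2, which tethers budding viruses to the cell, had 24.9, 30.2, 28.6 and 33.7 FPKM in cHET 1 to 4, against 33.3, 38.5, 29.2 and 40.1 FPKM in control 1 to 4. Control 3 and control 1 lay within the cHET range (log2 fold change -0.26; limma, adjusted p = 0.592).

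Isg15, a ubiquitin-like modifier, had 4.80, 6.70, 5.85 and 9.60 FPKM in cHET 1 to 4, against 6.81, 9.42, 6.20 and 10.7 FPKM in control 1 to 4. Below control 4, the next highest library was cHET 4 (log2 fold change -0.27; limma, adjusted p = 0.699, and 0.0082 without control 2 and control 4). Ifi35 averaged 8.73 ± 1.36 FPKM in cHET and 10.8 ± 2.61 FPKM in control (SD, n = 4; log2 fold change -0.27). Its groups overlapped, as did those of the exonuclease Isg20 (-0.21) and the antiviral enzyme Rsad2 (-0.13). Isg20l2 was the one member of this class above 0, with 9.10, 9.22, 9.79 and 10.1 FPKM in cHET 1 to 4, against 7.63, 7.90, 9.33 and 8.65 FPKM in control 1 to 4. Control 3 alone fell within the cHET range (log2 fold change 0.17; limma, adjusted p = 0.583). Of 15 sensors of foreign nucleic acid only 2 were tested. The other 13 stood under the limit of 1 FPKM, at means over the 8 libraries of 0 to 0.620 FPKM. Ddx58, an RNA sensor, had a log2 fold change of -0.10. Ifi203, of the DNA-binding Ifi200 family, had 0.0027 (-0.0096 with mtDNA-encoded genes left out of the totals). The gene models of Ifi203 and Mndal overlap on the same strand, so both counts are uncertain.

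The 43 members under the limit of 1 FPKM were described but not tested. In 5 of them, Ifitm7, Ifi202b, Oas1d, Oas1h and Ifi44l, no read was counted in any library. A count of 0 allows up to 3 reads, which corresponds to 0.0656 to 0.141 FPKM per library for these genes and covers counting error only. Of the 38 with reads, 34 had a lower mean in cHET and 4 a higher one (of the 6262 protein-coding genes with reads under the limit, 54.9% had a lower mean in cHET). Among those with the highest means were Irf5, Usp18, Oas1a and Ifit1bl2.

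Irf5, a factor of macrophages, averaged 0.779 ± 0.204 FPKM in cHET and 1.16 ± 0.168 FPKM in control (SD, n = 4). Usp18, which removes Isg15 from proteins and damps the receptor, averaged 0.927 ± 0.207 FPKM in cHET and 0.937 ± 0.443 FPKM in control. Oas1a, which makes the messenger of RNA decay, averaged 0.840 ± 0.281 FPKM in cHET and 0.976 ± 0.270 FPKM in control, and Ifit1bl2 0.587 ± 0.161 FPKM in cHET and 0.786 ± 0.278 FPKM in control. The groups of Irf5, Usp18 and both these genes overlapped.

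Of the cytoplasmic RNA sensors under the limit, Ifih1 averaged 0.620 ± 0.112 FPKM in cHET and 0.621 ± 0.106 FPKM in control, and Dhx58 0.314 ± 0.126 FPKM in cHET and 0.509 ± 0.159 FPKM in control. Both overlapped between the groups, and Dhx58 rested on 11 to 33 reads. Groups did not overlap for 2 of the 38 members with reads, Gbp6 and Ifitm6, both lower in cHET, and for 0 that were higher. Of the 6262 protein-coding genes with reads under the limit, 2.43% were lower without overlap and 1.12% higher. Gbp6 averaged 0.175 ± 0.0599 FPKM in cHET and 0.321 ± 0.0624 FPKM in control on 12 to 36 reads, and Ifitm6 0.178 ± 0.0855 FPKM in cHET and 0.638 ± 0.373 FPKM in control on 1 to 17 reads. At such counts these values carry large counting error.

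The limit itself split close neighbours. Just inside it stood Ifitm5, with a mean over the 8 libraries of 1.09 FPKM, and Ifit3 with 1.11 FPKM, and just outside it Irf5 with 0.971 FPKM. When the limit was 0.1 FPKM, 56 of 64 members had a log2 fold change below 0, with a median of -0.17, and again 0 were called.

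The members peaked in different libraries. Control 4 held the highest value for 14 of the 36 tested members, and control 1 and control 2 for 9 each, while control 3 held it for 0. Of all genes tested, 12.6% were highest in control 4, 15.0% in control 1, 22.5% in control 2 and 8.24% in control 3, so that the count for control 2 lay near its share of all genes. Each cHET library held the highest value for 1 member. The 4 control libraries together held 32 of the 36 highest values (of all genes tested, 58.3% were highest in a control library).

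Genes of 1 role were often divided between the controls. Highest in control 4 were Isg15, Bst2, Oasl2, Rsad2, Irf9, Irf8, Ddx58, Igtp, Irgm1, Irgm2, Gbp3, Gbp7, Gbp9 and Ifi203. Among those highest in control 2 were Gbp2, Gbp4, Ifi27, Ifi27l2a, Ifitm2, Ifitm5, Isg20 and Xaf1, and in control 1 Iigp1, Ifitm1, Ifitm3, Ifit3, Ifit1bl1, Ifi35, Irf3, Irf7 and Stat2. The lowest values were most often in cHET 3 (10 members), cHET 1 (8) and control 3 (8), which held 12.4%, 8.95% and 7.11% of the lowest values over all genes tested. The cHET libraries together held 22 of the 36 lowest values and the control libraries 14, against 37.7% and 62.3% of those of all genes tested.

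As a level for each library, the median of log2(FPKM + 1) minus the gene's mean over the 8 libraries was -0.076, -0.065, -0.14 and 0.015 in cHET 1 to 4. It was 0.12, 0.24, -0.095 and 0.19 in control 1 to 4. The groups overlapped, since control 3 lay below 3 of the 4 cHET libraries.

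**Figure D3:**
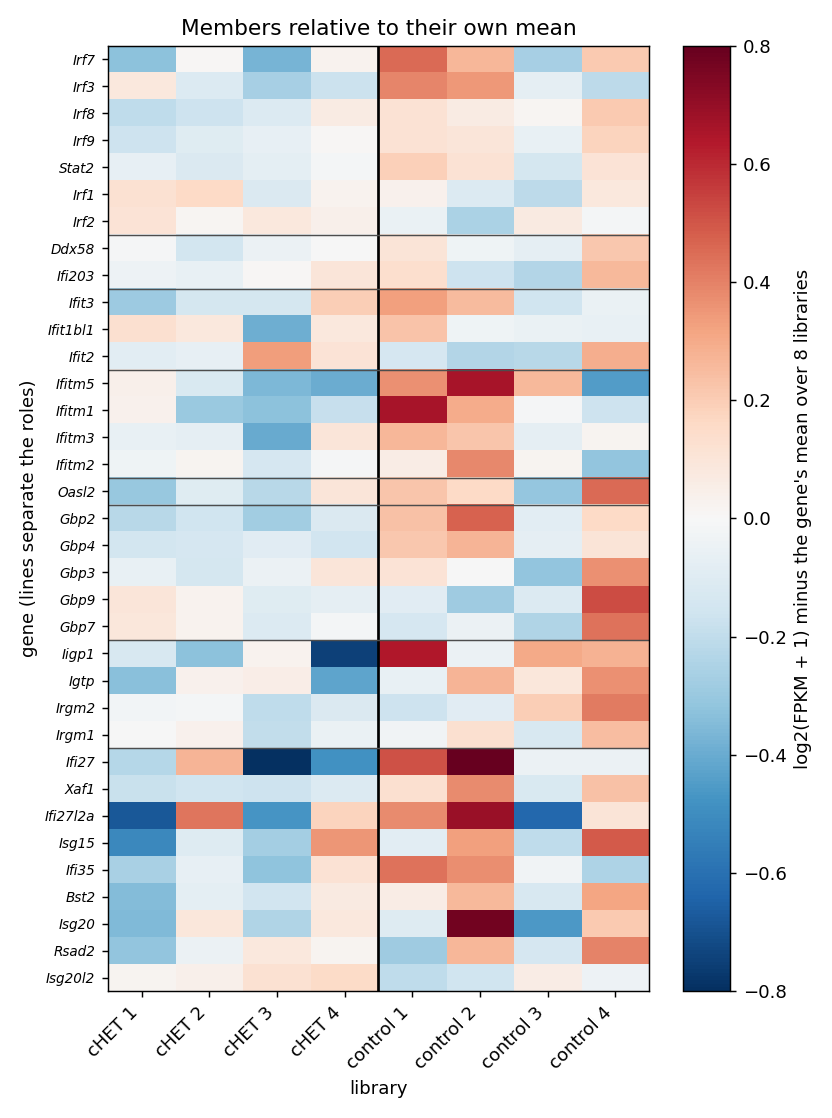
The 35 tested members shown (rows, lines between roles) in each library (columns, cHET left of the black line) are coloured by log2(FPKM + 1) minus the gene's mean over the 8 libraries. Warm cells gather in control 1, control 2 and control 4, in different rows of each, while control 3 resembles the cHET libraries, with a median of -0.095.

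Markers of blood-derived cells were set beside the members. Of 16 macrophage and leukocyte markers 14 were tested, all 14 with a log2 fold change below 0 (median -0.45) and 0 past an adjusted p under 0.05. Their summed level was 85.0 to 131 FPKM in the cHET libraries and 111 to 223 FPKM in the control libraries, highest in control 2, with no marker at 0 in every library. Neutrophil markers summed to 9.82 to 16.4 FPKM in cHET and 8.54 to 74.6 FPKM in control, again highest in control 2. Their part in the interferon response genes was not tested. Control 4, which held the most peaks, had 111 FPKM of macrophage and leukocyte markers and 8.54 FPKM of neutrophil markers. Both were the lowest sums among the controls, with control 3 close for the first, at 114 FPKM. The first still lay above cHET 1, cHET 3 and cHET 4 (97.1, 85.0 and 90.3 FPKM) and below cHET 2 (131 FPKM). The second lay below every cHET library. Single markers differed in order. C1qa was lowest of the controls in control 4 (18.4 FPKM), while Csf1r in control 4 (4.96 FPKM) exceeded control 1 (3.89 FPKM) and control 3 (4.28 FPKM).

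Lymphocyte and plasmacytoid dendritic cell markers were near the floor, with sums of 1.10 to 3.22 FPKM in cHET and 1.46 to 2.77 FPKM in control, and 0 of 11 reached 1 FPKM on average. Epicardial and mesothelial markers summed to 38.4 to 56.2 FPKM in cHET and 57.5 to 102 FPKM in control, without overlap. Of 6 tested, 5 were below 0 (median log2 fold change -0.77) and 0 were called. At an unadjusted p under 0.05, 3 of these 6 were lower, against 3.92% of all genes tested. So were 6 of the 14 tested macrophage and leukocyte markers and 3 of the 10 endothelial markers. Endothelial markers (389 to 434 FPKM in cHET, 402 to 447 in control) and fibroblast markers (326 to 543 FPKM in cHET, 363 to 550 in control) overlapped between the groups, with 6 of 10 and 7 of 7 below 0. The heart label fitted its own markers, since 8 cardiomyocyte genes summed to 17072 to 20829 FPKM in cHET and 17959 to 20951 FPKM in control. Fat markers summed to 29.0 to 42.3 FPKM in cHET and 24.6 to 59.8 FPKM in control, mostly from Cidea, at 24.5 FPKM or more in every library. Ucp1, which marks brown fat, had 0.286, 6.56, 0 and 1.62 FPKM in cHET 1 to 4, against 17.8, 16.7, 0.0387 and 0.149 FPKM in control 1 to 4. It was thus high in control 1 and control 2 and nearly missing in control 3 and cHET 3, and its part in the members was not tested. Red cell markers (1595 to 2541 FPKM in cHET, 1023 to 8411 in control) were highest in control 2.

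**Figure D4:**
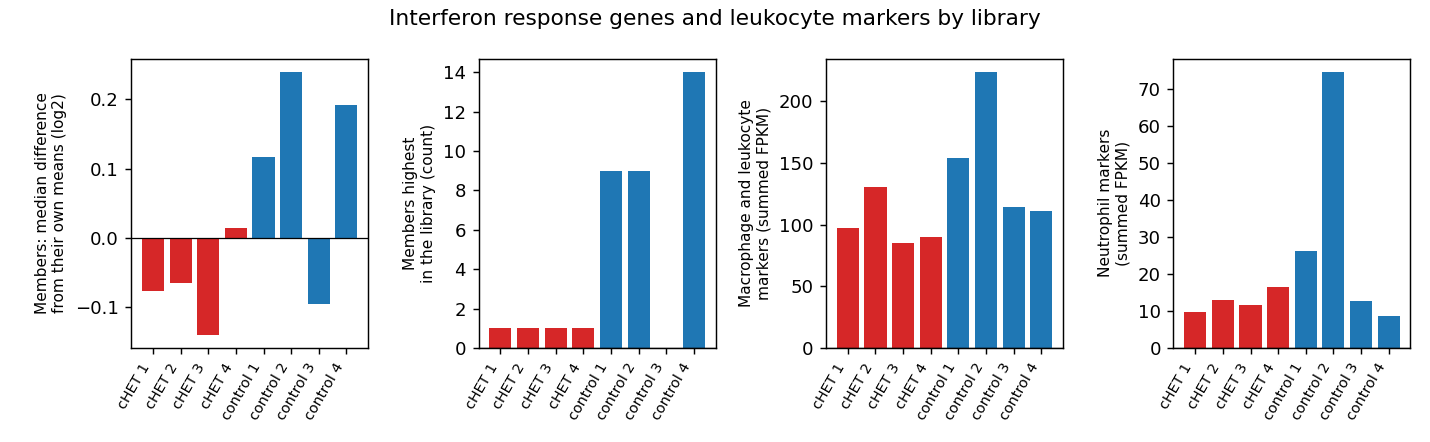
From left to right, for each library (cHET red, control blue): the members' median difference from their own means (log2), the number of tested members highest in that library, and the summed FPKM of macrophage and leukocyte markers and of neutrophil markers. Control 2 is highest for the members' median and for both marker sums. Control 4 holds the most peaks, 14, with marker sums of 111 and 8.54 FPKM.

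Upstream of the members, interferons themselves were hardly detected. Of 12 ligand genes 10 had no read in any library, and Ifng had 0.194 FPKM in cHET 2 and 0.0497 FPKM in control 1 and 0 in the other 6. Receptor and kinase genes were better expressed. All 9 were tested, 0 were called in either direction, 7 were below 0 and the median log2 fold change was -0.029. Tyk2 had -0.20, Ifnar2 -0.096 and Ifnlr1 0.16, the 3 with the smallest p, and the summed level was 103 to 113 FPKM in cHET and 100.4 to 116 FPKM in control.

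Sensing and induction genes had 0 of 12 tested genes called, 4 below 0 and a median log2 fold change of 0.019. The kinase Ikbke had -0.29, the DNA sensor Mb21d1 0.14 and the adaptor Traf3 0.12. Negative regulators had 6 of 10 below 0 and a median of -0.051, with 0 called. Ptpn6, a phosphatase of blood cells, averaged 1.81 ± 0.400 FPKM in cHET and 2.68 ± 0.770 FPKM in control (SD, n = 4; log2 fold change -0.38; limma, adjusted p = 0.547). Its groups only just missed each other, with 2.11 FPKM in the highest cHET library and 2.14 FPKM in the lowest control. It was the 1 of these 10 genes lower without overlap, against 2.00% of all genes tested. Nlrx1 had -0.19 and Socs3 -0.14. The nuclease gene Trex1 was listed at 0 in every library. Overlaps of Trex1 with other genes were not looked at, so this 0 does not show that the gene was silent.

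Further interferon-stimulated genes outside the rule had a median closer to 0. Of 42 genes 29 were tested, 21 of them below 0 and 0 called, with a median log2 fold change of -0.037. Slfn2 (-0.55), Uba7 (-0.25) and B2m (-0.35) had the smallest p. B2m, the light chain of MHC class I, averaged 128 ± 14.7 FPKM in cHET and 165 ± 38.3 FPKM in control (SD, n = 4; limma, adjusted p = 0.592). The difference between this list and the members was not tested.

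Promoter content was set beside the fold changes as a description. The 14 tested members with an interferon-stimulated core had a median log2 fold change of -0.13, with 13 below 0. The 16 tested members with a matched promoter and no such core had a median of -0.21, with 12 below 0. The ranges overlapped, from -0.39 to 0.12 with the core and from -0.42 to 0.17 without it.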

How the data were processed

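Per the labels, RNA of 4 cHET and 4 control hearts was sequenced. The authors deposited 1 FPKM value per gene and library. Tools named by the submitters' processing notes, in roles not given, are featureCounts 1.5.0-p3, HISAT2 2.0.5 and DESeq2 1.20.0, with build mm9. Coordinates are printed on GRCm38, since 98.3% of the 54495 genes found in GENCODE M21 (77 of 79 members) lie at identical positions. Strand use in counting is not given in the sources used here, and 36 of 79 members overlap another gene.

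Dividing by the smallest steps of FPKM times gene length gave whole reads for 100% of values (within 0.05 reads). These rebuilt reads served as depth and in voom. The 13029 genes with a mean of at least 1 FPKM entered limma 3.58.1 (R 4.3.3; trend and robust, two-sided, no covariate) on log2(FPKM + 1), a scale that understates changes of low genes, with Benjamini-Hochberg adjustment over all of them. The code was tested on simulated data.

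Members and lists were chosen with earlier results of these data known. Given with every library were 13 fixed members, the 10 with the smallest p and the 5 with the highest mean. Other members are given by fold change or level, and other lists by counts and the 3 genes with the smallest p. Some members are counted but not reported singly here. Trex1 and the untested Gbp6, Ifitm6, Mx1, Ifit1, Ifih1, Dhx58 and Irf4 were named after their values were seen. Libraries of a group differed by more than sampling noise (chi-square per gene 14.2 or more), so each counted as 1 replicate.

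Alternatives were other pseudocounts, filters, scalings and variance models, library weights, voom, a replicate block, sex as a covariate (from Xist and Ddx3y) and libraries left out. By these 2 genes, 1 cHET and 2 control hearts counted as male, and 3 cHET and 2 control hearts as female. With sex as a covariate in limma, 32 of 36 members were below 0, against 47.6% of all genes. At an unadjusted p under 0.05, 10 members were lower, and 937 of all 13029 genes passed in either direction.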

Additional observations from a re-analysis of the deposited data

Results flagged for a closer look

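For 2 members of the IFIT family, the value of 1 library stood far from the other 3 of its group. Ifit1bl1 had 0.739 FPKM in cHET 3, against 1.41 to 1.49 FPKM in the other cHET libraries, and 1.67 FPKM in control 1, against 1.18 to 1.22 FPKM in the other controls. Ifit2 had 6.02 FPKM in control 4, against 3.89 to 4.25 FPKM in the other controls. These 3 values came from 74 groups of 4 that were looked at, and chance marks about 1 in 20 groups.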

How the results depend on the processing

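Under the 22 alternatives and 1 added after seeing the data (without control 2 and control 4, for their Mrps5 level), 0 interferon response genes were called by limma. Their median log2 fold change was below 0 in each, from -0.25 to -0.14 with single libraries left out and -0.045 with library weights. Genes called over the whole table, 3 in the fit as reported, were 11 with library weights, 5 without control 2 and control 4, and 1 with a mean FPKM of at least 5. Ifitm2, near 0, changed sign, at 0.024 under TPM and -0.19 to 0.041 with single libraries left out. Without control 1 and control 2, log2 fold changes were 0.11 for Ifitm2, 0.13 for Ifi27l2a, 0.025 for Irf3 and 0.0083 for Ifit3. Ifi27l2a was 0.25 with library weights. Without control 2 and control 4, Irgm1 was 0.023 and Isg15 0.0082. Leaving out 1 library moved 10 of 21 named members by over 1.5 times (Ifi27l2a, Ifit3, Ifitm1, Ifitm2, Ifitm3, Irf1, Irf3, Irgm1, Isg15, Stat2). Mrps5 ranged from -0.30 to 0.041, its highest value without control 1. The cause was not tested. The 43 members under 1 FPKM, some on fewer than 20 reads, are limited by depth.

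With the replicate block, 1 gene and 0 members were called, and 10 members were lower at an unadjusted p under 0.05. The count at this unadjusted limit rose over the whole table too. Of 13029 genes, 1747 passed this limit in either direction with the block, against 1166 in the fit as reported. Correlations of same-numbered libraries were 0.29, 0.27, 0.052 and 0.057. cHET 1 and cHET 2 correlated best with the control of their own number. By contrast, cHET 3 correlated best with control 4 (0.34) and cHET 4 with control 2 (0.10). The labels state no pairing, and so few correlations cannot decide whether same-numbered libraries were paired.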
